A study of Homo sapiens with 18 samples.

Results

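The 31 genes described here encode the steps that carry glucose to lactate and the switches around them, namely glucose carriers, glycolytic enzymes and their isozymes, the PFKFB enzymes, lactate dehydrogenase subunits, monocarboxylate carriers, pyruvate dehydrogenase kinases and 3 enzymes at branch points. They were chosen by name and matched on the gene symbol of the deposited table, and all 31 were found among its 57500 genes. All 31 also passed the filter on low counts, which left 16994 genes for testing. The question was whether removing mitochondria shifts the expression of glycolytic genes, and whether acetate or mitochondrial DNA given afterwards shifts it again.

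RNA-seq of polyA RNA was available for 18 libraries of IMR90, a line of human lung fibroblasts, with 3 libraries in each of 6 groups. The cells were either proliferating (Prol) or made senescent by ionising radiation (Sen (IR)), and another group was irradiated and then given CCCP, a protonophore that collapses the mitochondrial membrane potential (Sen (IR) + CCCP). In this system the cells overexpress Parkin, the ubiquitin ligase that marks depolarised mitochondria for mitophagy, so that CCCP leads to their removal. The methods give low oxygen as the culture condition for fibroblasts of this line, and the labels name no group at another oxygen level. The last 3 groups were irradiated and CCCP-treated and then received sodium acetate (Sen (IR) + CCCP + Acetate), transfected mtDNA (Sen (IR) + CCCP + mtDNA) or both (Sen (IR) + CCCP + mtDNA + Acetate). Per the methods, acetate was given repeatedly and mtDNA was transfected later, so the lengths of exposure differ. No proliferating cells with CCCP and no cells given transfection reagent alone are among these libraries, so exposure to CCCP and loss of mitochondria cannot be told apart here, nor can mtDNA and the transfection itself. No group received another sodium salt, so acetate and the added sodium cannot be told apart either. The study counts its replicates as independent experiments, although the labels do not tie single libraries to a culture.

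Glycolysis splits glucose into pyruvate in the cytosol and yields ATP without oxygen. Pyruvate either enters mitochondria, where pyruvate dehydrogenase turns it into acetyl-CoA, or is reduced to lactate, which regenerates the NAD+ that glycolysis needs and leaves the cell through monocarboxylate carriers. Cells without respiration depend on this route, and many glycolytic genes are known targets of the hypoxia-inducible factors and of MYC.

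Each library held between 24624886 and 46224280 counts on genes. The share of counts from transcripts encoded by mtDNA was 2.11% ± 0.468 (SD, n = 3) in Sen (IR) cells and 0.122% ± 0.0116 in Sen (IR) + CCCP cells, and it stayed at or below 0.132% on average in the other 3 CCCP-treated groups. It was 0.0505% ± 0.00387 in Sen (IR) + CCCP + mtDNA. The 3 libraries of Sen (IR) + CCCP + mtDNA + Acetate differed, with 0.0640%, 0.237% and 0.0624%. Sen (IR) replicate 3 and Sen (IR) + CCCP + mtDNA + Acetate replicate 2 stood apart from the other libraries of their groups, so counts that rest on them are also given without both. All 5 fibroblast markers were lower in Sen (IR) + CCCP cells than in Sen (IR) cells, with summed levels of 6101 to 6320 against 17765 to 21982 CPM (counts scaled to the TMM-corrected library size), although VIM turned above 0 with the other scalings described below, whereas the summed markers of leukocytes, epithelium and endothelium averaged at most 2.72 CPM in any group, and none of these lists had a marker at 0 in every library. The part of these shifts in the results below was not tested. In bulk RNA a smaller number of cells of one kind and less RNA per cell cannot be told apart.

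CCCP treatment was followed by changes in both directions. In Sen (IR) + CCCP against Sen (IR), 8 of the 31 genes rose and 13 fell at an adjusted p under 0.05 (edgeR's quasi-likelihood test with Benjamini-Hochberg adjustment over all genes tested). These 21 genes are 67.7% of the members, beside 65.2% of all genes called in this comparison, 34% higher and 31.3% lower. Most changes were small. With TMM scaling only PGM1 and PDK2, which fell, and PDK4, which rose, passed a 2-fold change, whereas 18.4% of all genes did. Of the 31, 24 stayed within 1.5-fold, beside 58.9% of all genes. The 2-fold set depends on the scaling. With library totals, described below, the median of all genes moved up by more than the margin of PGM1 and PDK2. By TPM, SLC2A3 passed 2-fold, from 99.6 ± 5.10 in Sen (IR) to 226 ± 8.49 in Sen (IR) + CCCP. On the log2 scale the members' median change was -0.08, beside 0.03 over all genes, and the 3 libraries of each group did not overlap for 22 members, beside 67.7% of all genes.

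The direction of the small changes depended on how the libraries were scaled. These values use TMM factors, which set the bulk of genes to no change. Without them, using library totals alone, the median of all genes moved up by 0.26, 16 members were called higher and 7 lower, and the calls for SLC2A1, PGAM1, PKM and TALDO1 turned from lower to slightly above 0 (log2 fold changes of 0.05, 0.04, 0.12 and 0.02). On log2(TPM + 1), tested with limma, the median of all genes moved up to 0.35 with 21 members higher and 4 lower, and SLC2A1, PFKM, GAPDH, PGAM1, PKM and TALDO1 changed sign. PFKL, ALDOA and SLC16A3 kept their sign on that scale but were not called (-0.11, -0.065 and -0.19). LDHA, HK1, GPI, TPI1, ENO1 and PFKFB2 were not called under TMM. By TPM, every Sen (IR) + CCCP library lay above every Sen (IR) library for each of them. The members' median lay below that of all genes under each scaling, by -0.11, -0.11 and -0.07. Changes are therefore given relative to the bulk of genes. Shares of all genes called are given for the TMM fit only. Counts of members under the other scalings, here and below, follow the shift of all genes and are not a result about the members. Leaving out the 2 libraries that stood apart gave 8 higher and 15 lower.

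**Figure D1:**
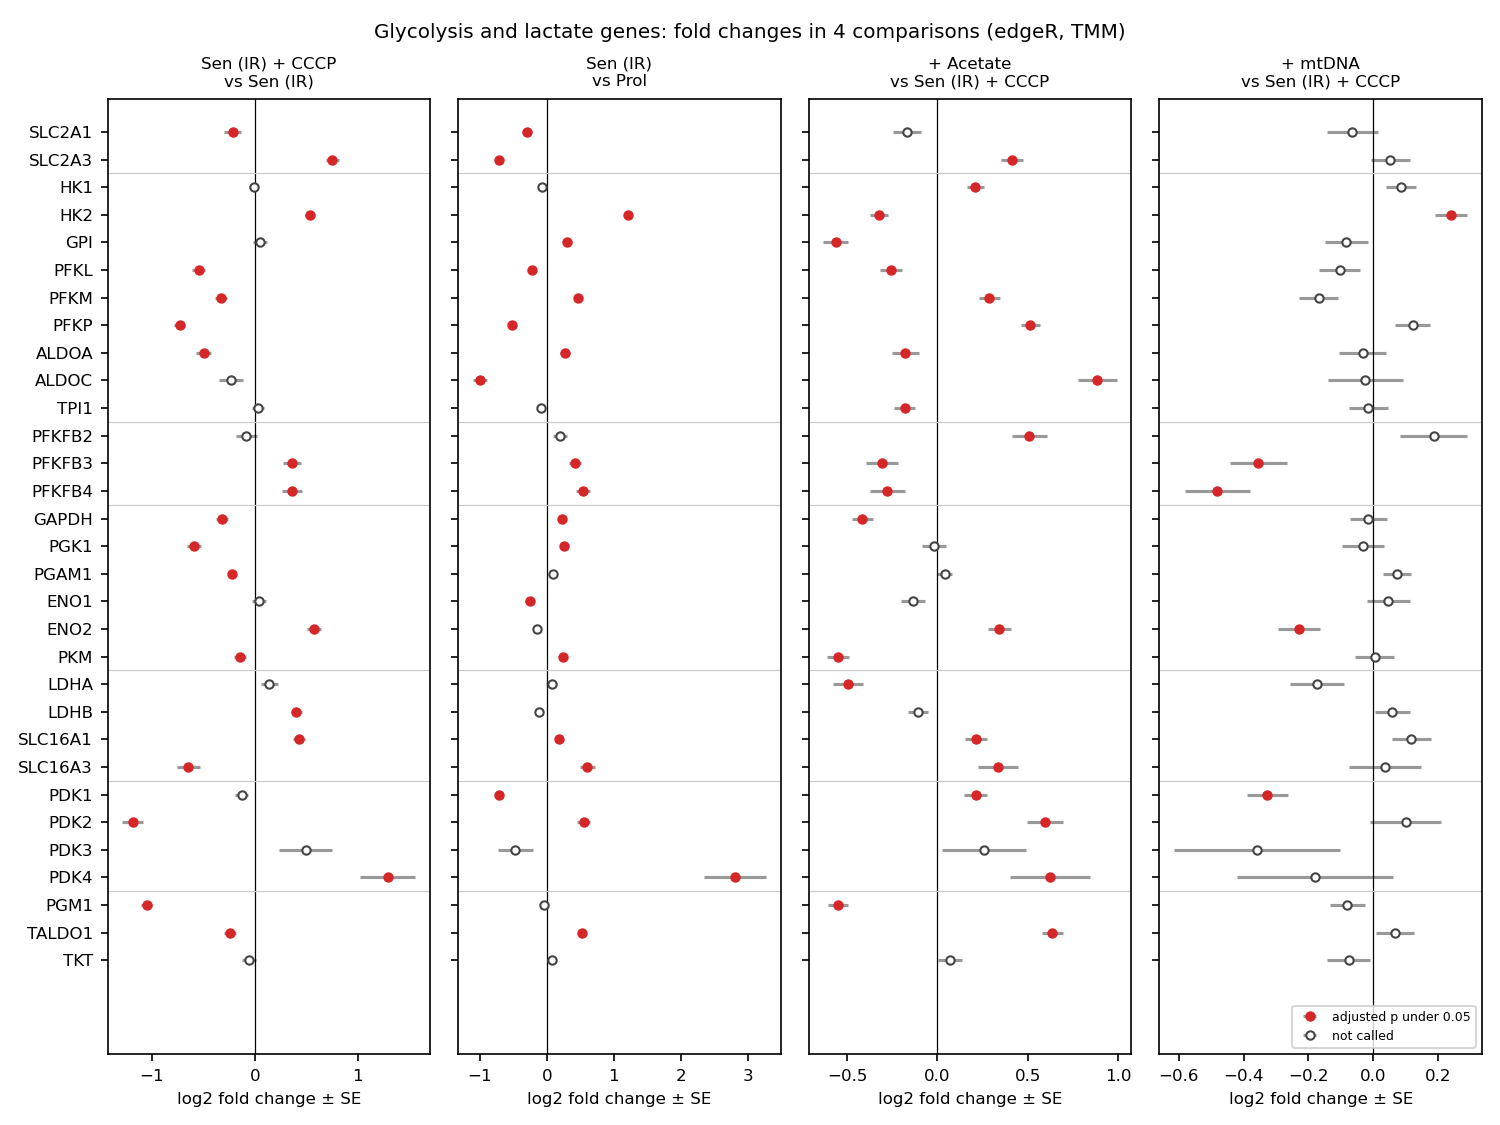
Log2 fold changes with standard errors (horizontal axes, a different range in each panel) of the 31 genes in 4 comparisons from edgeR with TMM scaling, 3 libraries a group. Filled points passed an adjusted p of 0.05 and grey lines separate the roles. PGM1 and PDK2 lie farthest left and PDK4 farthest right in the first panel, where SLC2A1, PFKM, GAPDH, PGAM1, PKM and TALDO1 change sign under another scaling.

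**Figure D2:**
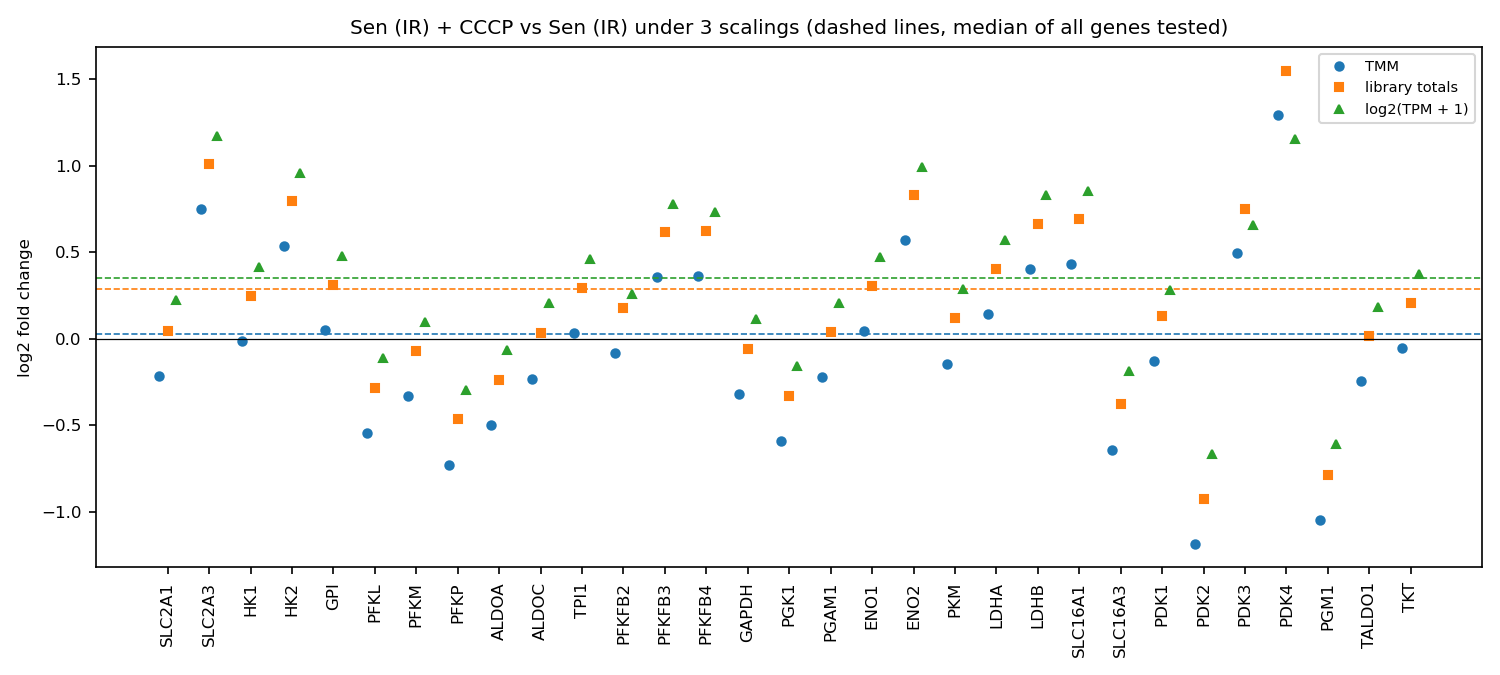
Log2 fold change (vertical axis) of each gene in Sen (IR) + CCCP against Sen (IR) under TMM, library totals and log2(TPM + 1), with dashed lines at the median of all genes tested under each. The 3 scalings shift nearly all genes together, which moves the genes near 0 across it (SLC2A1, PFKM, GAPDH, PGAM1, PKM and TALDO1 among those called), and PGM1 and PDK2 stay below 0 under all 3.

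PGM1, which interconverts glucose 1-phosphate and glucose 6-phosphate and so links glycogen with glycolysis, fell most clearly. It lies at chr1:63593411-63660245 (GRCh38, plus strand). Its level was 83.0, 83.1 and 80.2 CPM in the 3 Prol libraries, 81.3, 83.3 and 74.8 in Sen (IR), and 39.1, 38.3 and 38.5 in Sen (IR) + CCCP. It was 28.0, 24.96 and 26.2 CPM with acetate, 35.8, 38.2 and 35.7 with mtDNA, and 27.5, 30.2 and 27.3 with both. Prol and Sen (IR) cells overlapped, and every CCCP-treated library lay below both. The log2 fold change after CCCP was -1.05 ± 0.05 (SE; adjusted p = 1.99e-13), and acetate lowered PGM1 by a further -0.55 ± 0.06 (adjusted p = 2.01e-08). Exons of PGM1 overlap those of ITGB3BP on the opposite strand, and whether these libraries were strand-specific is not given in the sources used here.

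PDK2 and PDK4 encode 2 of the 4 pyruvate dehydrogenase kinases, which phosphorylate and switch off pyruvate dehydrogenase and so keep pyruvate from being turned into acetyl-CoA, and they moved in opposite directions. PDK2 (chr17:50094737-50112152, plus strand) was at 8.60, 9.74 and 8.45 CPM in Prol, 12.3, 13.9 and 13.1 in Sen (IR) and 5.44, 5.61 and 6.24 in Sen (IR) + CCCP. With acetate it was at 8.19, 8.44 and 9.32, with mtDNA at 6.83, 6.22 and 5.46, and with both at 9.40, 9.06 and 7.74 CPM. PDK2 was thus highest in Sen (IR), lowest after CCCP without acetate, and in between when acetate was present, where 3 of 6 libraries lay within the range of Prol and 3 below it. It rose by 0.55 ± 0.10 with irradiation (adjusted p = 4.95e-05), changed by -1.19 ± 0.10 after CCCP (adjusted p = 7.86e-10) and rose by 0.60 ± 0.10 with acetate (adjusted p = 3.27e-05), all on the log2 scale. Exons of PDK2 overlap those of SAMD14 on the opposite strand.

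PDK4 (chr7:95583499-95596516, minus strand) was scarce throughout, with 2 to 230 counts per library. It was at 0.196, 0.0740 and 0.260 CPM in Prol, 1.22, 1.19 and 1.58 in Sen (IR) and 3.04, 3.53 and 3.16 in Sen (IR) + CCCP. With acetate it reached 6.08, 4.27 and 4.83, with mtDNA 3.94, 1.33 and 3.33, and with both 4.36, 4.63 and 4.03 CPM. The first 3 groups did not overlap, and 1 of the mtDNA libraries fell back into the range of Sen (IR). PDK4 rose with irradiation by 2.81 ± 0.46 (adjusted p = 2.04e-05), again after CCCP by 1.29 ± 0.27 (adjusted p = 0.000205) and with acetate by 0.62 ± 0.22 (adjusted p = 0.0196). The call with acetate was lost without Sen (IR) + CCCP replicate 1 or Sen (IR) + CCCP + Acetate replicate 1, with values of 0.51 to 0.76 over all libraries left out in turn. PDK1, a known HIF1 target, fell with irradiation from 100.2 ± 3.81 to 61.0 ± 3.13 CPM (log2 fold change -0.72 ± 0.06) and was not called after CCCP (-0.13 ± 0.06, adjusted p = 0.0786). PDK3 averaged at most 2.18 CPM and was called in none of these 3 comparisons.

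**Figure D3:**
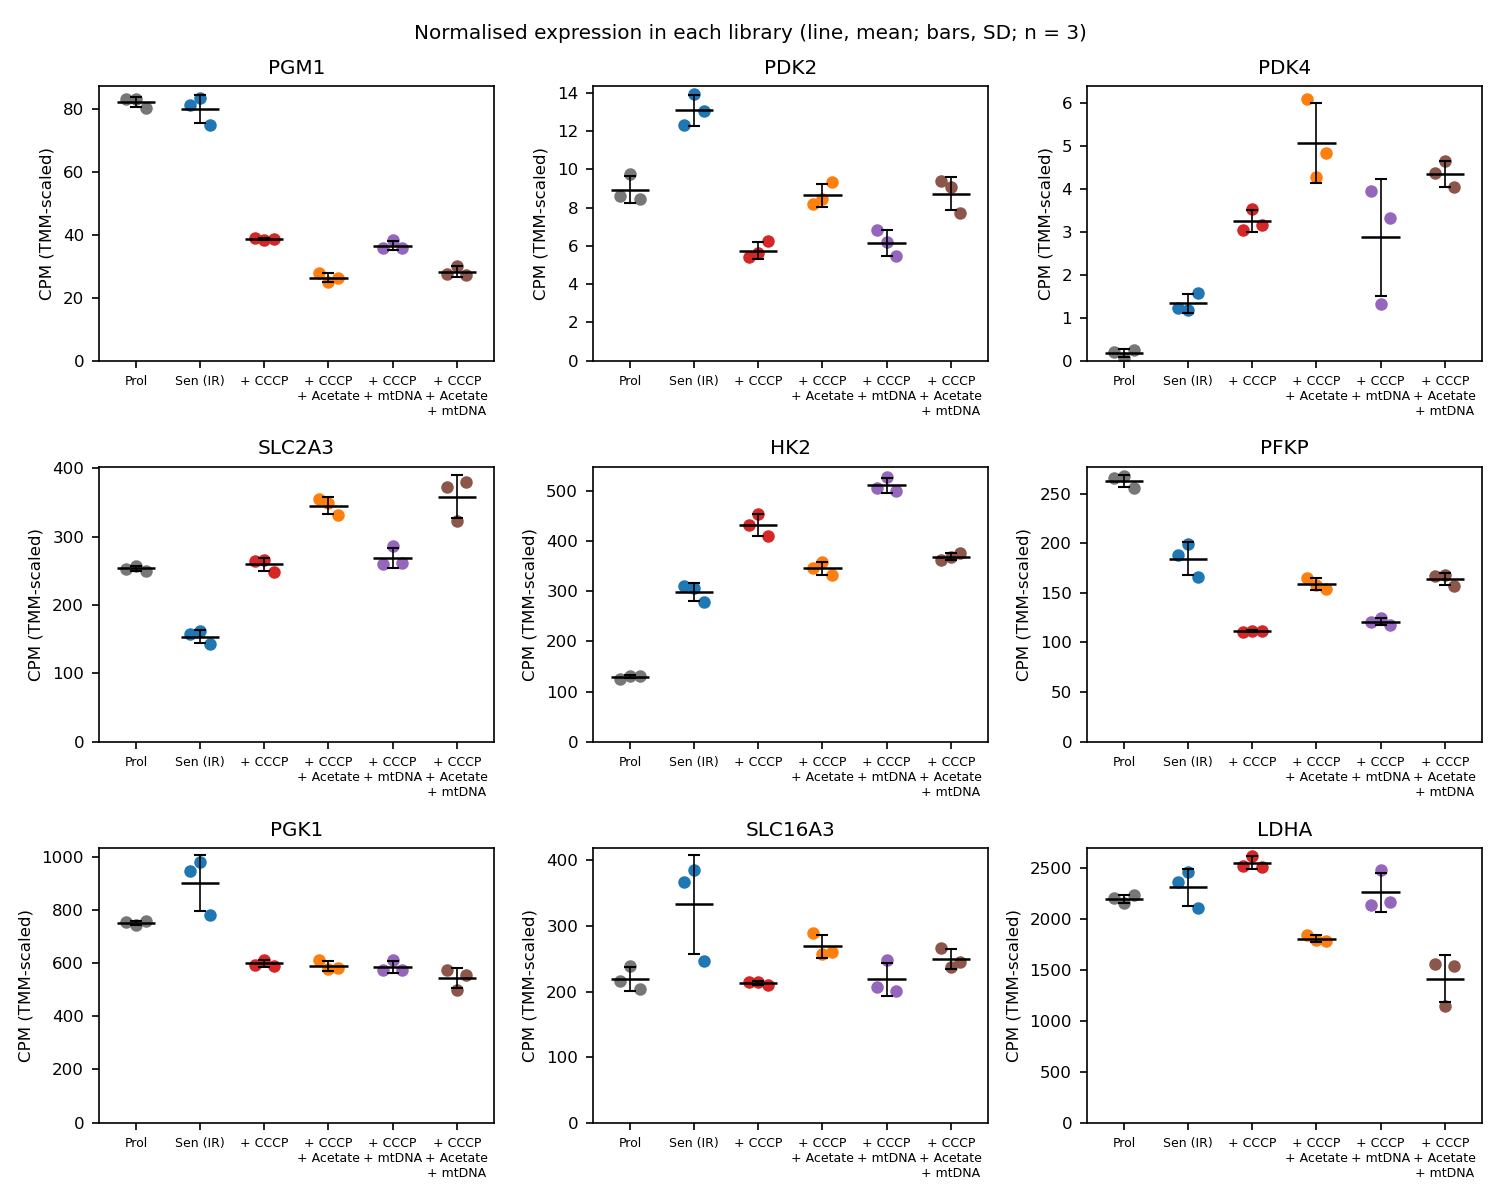
CPM with TMM-scaled library sizes (vertical axes, from 0) of 9 genes in each of the 18 libraries. Points are libraries, lines are means and bars are SD (n = 3). PGM1 falls and PDK4 rises in every library of Sen (IR) + CCCP against every library of Sen (IR), and LDHA is lowest in the groups with acetate.

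The promoter windows of 4 members are shown because the motifs that hypoxia-inducible factors and MYC are known to bind can be read in them next to the direction of each gene. They were chosen after the values were seen. PGM1 and PGK1 fell after CCCP, HK2 rose and LDHA was not called. Sequences are from RefSeq on GRCh38.p14, read on the plus strand, and capitals mark ACGTG or GCGTG on either strand, the cores of the hypoxia response element. The HK2 and PGK1 windows precede a start inside the annotated gene, outside exons, and the PGM1 and LDHA windows precede the gene.
PGM1 (chr1:63593161-63593410): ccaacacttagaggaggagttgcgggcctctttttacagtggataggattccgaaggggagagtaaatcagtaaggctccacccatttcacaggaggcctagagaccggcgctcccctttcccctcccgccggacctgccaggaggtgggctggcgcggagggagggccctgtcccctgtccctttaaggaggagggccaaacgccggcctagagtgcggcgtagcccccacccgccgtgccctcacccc
HK2 (chr2:74834920-74835169): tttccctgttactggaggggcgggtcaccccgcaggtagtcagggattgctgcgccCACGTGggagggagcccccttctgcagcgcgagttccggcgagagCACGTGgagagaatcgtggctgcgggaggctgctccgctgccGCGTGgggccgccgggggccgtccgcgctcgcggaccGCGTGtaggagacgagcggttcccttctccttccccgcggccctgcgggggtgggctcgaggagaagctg
LDHA (chr11:18394313-18394559): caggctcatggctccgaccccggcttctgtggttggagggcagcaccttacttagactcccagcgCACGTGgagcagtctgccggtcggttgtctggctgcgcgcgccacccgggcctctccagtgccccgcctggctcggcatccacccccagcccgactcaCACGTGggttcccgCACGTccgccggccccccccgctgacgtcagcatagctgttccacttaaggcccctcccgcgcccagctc
PGK1 (chrX:78103998-78104247): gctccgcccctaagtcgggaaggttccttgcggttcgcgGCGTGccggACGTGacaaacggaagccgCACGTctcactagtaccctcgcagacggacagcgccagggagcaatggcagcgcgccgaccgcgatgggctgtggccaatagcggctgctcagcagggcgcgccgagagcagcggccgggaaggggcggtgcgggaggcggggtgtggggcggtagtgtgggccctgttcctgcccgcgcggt
The PGM1 window holds neither core. The HK2 window holds ACGTG 4 times and GCGTG 2 times, the LDHA window holds ACGTG 5 times, and the PGK1 window holds ACGTG 2 times and GCGTG once. CACGTG, the E-box, contains ACGTG on both strands, so each E-box counts as 2 ACGTG, and it occurs 2 times in HK2 and 2 times in LDHA. A promoter was listed for 28 of the 31 members, in 58 windows of up to 250 bases before a start. ACGTG was present in 34.5% of these windows and in 18.5% of all 35116 promoter windows, GCGTG in 29.3% and 32.2%, and CACGTG in 12.1% and 6.34%. Either ACGTG or GCGTG was present in 50.0% of the members' windows and in 43.2% of all windows. Counted by member, where some members have several windows, either core was found for 4 of 6 that rose after CCCP, 9 of 13 that fell and 8 of 9 that were not called. No such count by gene was made for all genes. A match of letters is a description of the window and not a binding site.

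Of the glucose carriers, SLC2A3 (GLUT3), a high-affinity carrier, rose and SLC2A1 (GLUT1), the ubiquitous carrier, fell slightly. SLC2A3 fell with irradiation from 254 ± 3.36 to 154 ± 9.82 CPM and rose after CCCP to 259 ± 9.45 CPM, a log2 fold change of 0.75 ± 0.06 (adjusted p = 3.30e-10). SLC2A1 went from 714 ± 115 to 615 ± 2.48 CPM after CCCP (-0.22 ± 0.08, adjusted p = 0.0199). That call was lost without Sen (IR) replicate 1 or 2 or Sen (IR) + CCCP replicate 1, with values from -0.34 to -0.12, and its sign turned with library totals and with log2(TPM + 1).

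In upper glycolysis, 1 of 9 genes rose and 4 fell after CCCP. The riser was HK2, the inducible hexokinase that traps glucose in the cell and can sit on the mitochondrial surface, which went from 299 ± 18.04 to 433 ± 21.2 CPM (log2 fold change 0.53 ± 0.05, adjusted p = 3.84e-09) after a rise from 130 ± 3.07 CPM in Prol. HK1, the constitutive form, stayed between 176 and 211 CPM in all group means and was not called after CCCP (-0.01 ± 0.05). All 3 subunits of phosphofructokinase, the committed step, were called lower under TMM. PFKP went from 184 ± 16.7 to 111 ± 0.910 CPM (-0.73 ± 0.05), PFKL from 72.6 ± 5.01 to 49.7 ± 1.41 CPM (-0.54 ± 0.06, not called on log2(TPM + 1)) and PFKM from 92.5 ± 8.18 to 73.6 ± 4.17 CPM (-0.33 ± 0.06, above 0 on log2(TPM + 1)). ALDOA, the main aldolase, fell from 1266 ± 124 to 897 ± 29.6 CPM (-0.50 ± 0.07, not called on log2(TPM + 1)). GPI, TPI1 and ALDOC, the isomerases and a second aldolase, were not called (0.05 ± 0.07, 0.03 ± 0.06 and -0.23 ± 0.11), though ALDOC was called lower without the 2 libraries that stood apart (-0.36).

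The PFKFB enzymes make and remove fructose 2,6-bisphosphate, the strongest activator of phosphofructokinase. PFKFB3, whose kinase activity dominates, rose from 100.1 ± 6.26 to 128 ± 7.54 CPM after CCCP (0.36 ± 0.09, adjusted p = 0.00105), and PFKFB4 rose by the same amount from 14.9 ± 0.743 CPM (0.36 ± 0.10, adjusted p = 0.00257). PFKFB2 was not called (-0.08 ± 0.10). PFKFB3 and PFKFB4 had also risen with irradiation, by 0.42 ± 0.09 and 0.54 ± 0.10.

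Among the 6 genes of lower glycolysis, 4 fell and 1 rose. PGK1, which makes the first ATP of the pathway, fell from 901 ± 106 to 598 ± 12.7 CPM (-0.59 ± 0.07, adjusted p = 5.39e-08). GAPDH, often used as a reference transcript, fell from 3824 ± 309 to 3069 ± 79.0 CPM (-0.32 ± 0.06, above 0 on log2(TPM + 1)). PGAM1, phosphoglycerate mutase, fell by 0.22 ± 0.04 on the log2 scale, above 0 under both other scalings. The exception was ENO2, the enolase isozyme best known from neurons, which rose from 95.9 ± 3.78 to 143 ± 2.92 CPM (0.57 ± 0.07, adjusted p = 7.70e-08), whereas ENO1, the common enolase, was not called (0.04 ± 0.07). PKM, pyruvate kinase, was called lower by a narrow margin (-0.14 ± 0.06, adjusted p = 0.0383). Its call was lost without any single library of the comparison other than Sen (IR) replicate 3 (-0.23 to -0.08, highest adjusted p 0.267), when no filter was applied (-0.12) and when only these 2 groups were fitted (-0.16), and its sign turned under both other scalings. Reads of GAPDH, PGAM1 and 11 other members can be shared with processed pseudogenes, whose own counts were at most 0.538% of the parent's.

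At the lactate step, LDHB, the subunit of the heart form that favours lactate use, rose from 270 ± 26.3 to 357 ± 3.75 CPM (0.40 ± 0.05, adjusted p = 1.09e-06), and LDHA, the muscle form that favours lactate production, was not called under TMM (0.14 ± 0.08, adjusted p = 0.141). By TPM, LDHA was higher without overlap, at 1478 ± 99.6 in Sen (IR) and 2196 ± 50.3 in Sen (IR) + CCCP. The monocarboxylate carriers moved in opposite directions. SLC16A1 (MCT1) rose from 109 ± 11.3 to 147 ± 5.29 CPM (0.43 ± 0.06, adjusted p = 1.59e-06). SLC16A3 (MCT4), the lactate exporter of strongly glycolytic cells, fell from 333 ± 75.1 to 213 ± 2.91 CPM (-0.64 ± 0.11, adjusted p = 2.69e-05), beside 219 ± 18.4 CPM in Prol. On log2(TPM + 1) this fall was smaller and not called (-0.19, adjusted p = 0.181 by limma), and the TPM was 92.0 ± 9.54 in Prol, 147 ± 31.6 in Sen (IR) and 127 ± 1.87 in Sen (IR) + CCCP, within the range of Sen (IR). Sen (IR) replicate 3 had the lowest SLC16A3 of its group, and the call held without it.

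The last branch enzymes belong to the non-oxidative pentose phosphate pathway, which exchanges sugars with glycolysis. TALDO1, transaldolase, went from 142 ± 12.01 to 120 ± 6.12 CPM after CCCP (-0.24 ± 0.06, adjusted p = 0.000976, above 0 under both other scalings), and TKT, transketolase, was not called (-0.05 ± 0.07), though it was called lower without the 2 libraries that stood apart (-0.16).

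Irradiation was followed by calls in both directions. In Sen (IR) against Prol, 14 members rose and 7 fell, beside 56.7% of all genes called, 26.7% higher and 29.9% lower, and the median was 0.09 beside -0.01 over all genes. Without the 2 libraries that stood apart the counts were 17 and 7, with a median of 0.17. HK2 rose from 130 to 299 CPM (1.21 ± 0.05, adjusted p = 2.05e-14) and PDK4 rose as given above, the only members past 2-fold, beside 13% of all genes. ALDOC fell from 21.6 ± 1.497 to 10.7 ± 1.85 CPM (-0.998 ± 0.11, adjusted p = 5.00e-08), SLC2A3 and PDK1 each by 0.72 ± 0.06 on the log2 scale, and PFKP by 0.51 ± 0.05. PFKM (0.47 ± 0.06), TALDO1 (0.52 ± 0.06), SLC16A3 (0.60 ± 0.11), GAPDH (0.22 ± 0.06) and PGK1 (0.26 ± 0.07) rose. SLC16A1 was called higher by 0.18 ± 0.06, a call lost without Prol replicate 1, Prol replicate 3 or Sen (IR) replicate 2 (0.09 to 0.26).

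Against Prol, Sen (IR) + CCCP cells had 11 members higher and 11 lower, beside 69.2% of all genes called, and 21 higher and 7 lower with library totals, where the median of all genes moved by 0.35 and ALDOA, PGK1, PGAM1 and ENO1 turned above 0. Under TMM, HK2 (1.74 ± 0.05) and PDK4 (4.10 ± 0.40) were more than 2-fold higher, and PFKP (-1.24 ± 0.05), ALDOC (-1.23 ± 0.11) and PGM1 (-1.09 ± 0.05) more than 2-fold lower, beside 24.2% of all genes past 2-fold. LDHA was called higher by 0.21 ± 0.08 and lost this call whichever of the 6 libraries was left out. This comparison shares its libraries with both comparisons above.

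Acetate is converted to acetyl-CoA in the cytosol and nucleus and was given to ask whether it replaces what mitochondria supply. Added to Sen (IR) + CCCP cells, it raised 13 members and lowered 11, beside 57.1% of all genes called, 28.8% higher and 28.3% lower. No member changed 2-fold, beside 13.3% of all genes. The libraries of both groups did not overlap for 27 members, beside 66% of all genes. With library totals 8 were called higher and 15 lower, and with log2(TPM + 1) 9 and 14, but no member called under TMM turned its sign.

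The genes that acetate lowered included GAPDH and PKM of lower glycolysis and the lactate-forming LDHA. PKM fell from 2960 ± 65.2 to 2019 ± 60.2 CPM (-0.55 ± 0.06, adjusted p = 6.14e-08), LDHA from 2545 ± 63.1 to 1805 ± 34.4 CPM (-0.50 ± 0.08, adjusted p = 2.89e-05) and GAPDH from 3069 ± 79.0 to 2300 ± 70.3 CPM (-0.42 ± 0.06, adjusted p = 1.89e-06). GPI fell from 254 ± 13.7 to 172 ± 4.65 CPM (-0.56 ± 0.07) and HK2 from 433 ± 21.2 to 346 ± 13.01 CPM (-0.32 ± 0.05). PFKL (-0.26 ± 0.06), PFKFB3 (-0.31 ± 0.09) and PFKFB4 (-0.28 ± 0.10) were lowered as well. ALDOA (-0.18 ± 0.07) and TPI1 (-0.18 ± 0.06) were called lower, but ALDOA lost its call without any 1 of Sen (IR) + CCCP replicates 1 to 3 or acetate replicates 2 and 3 (-0.20 to -0.13), TPI1 without Sen (IR) + CCCP replicate 2 or 3 or acetate replicate 2 or 3, and PFKFB4 without Sen (IR) + CCCP replicate 1 or acetate replicate 1 or 3.

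The genes that acetate raised included several sister isozymes of those above. ALDOC rose from 9.22 ± 0.794 to 17.0 ± 0.710 CPM (0.89 ± 0.11, adjusted p = 3.08e-07), TALDO1 from 120 ± 6.12 to 186 ± 5.66 CPM (0.64 ± 0.06, adjusted p = 4.90e-09) and PFKP from 111 ± 0.910 to 159 ± 5.83 CPM (0.51 ± 0.05). PFKFB2 (0.51 ± 0.10), SLC2A3 (0.41 ± 0.06), ENO2 (0.34 ± 0.06), SLC16A3 (0.33 ± 0.11), PFKM (0.29 ± 0.06), HK1 (0.21 ± 0.05), SLC16A1 (0.21 ± 0.06) and PDK1 (0.21 ± 0.06) rose too. Of these, HK1, SLC16A1, SLC16A3 and PDK1, and PDK4 beside them, were not called with library totals, and all but HK1 also not on log2(TPM + 1). The cell cycle genes MKI67, CCNA2, TOP2A and LMNB1 were 1.00, 1.15, 1.00 and 0.64 higher on the log2 scale after CCCP and between -3.23 and -2.19 lower with acetate, and their part in the changes above was not tested.

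The same test could be made in cells that had received mtDNA, with other libraries on both sides. There acetate raised 12 members and lowered 12, beside 57.4% of all genes called (10 and 16 with library totals, 12 and 12 without the 2 libraries that stood apart). The sign was the same as without mtDNA for 30 of 31 members, beside 85.8% of all genes. Across the 31 genes, which are not independent replicates, the log2 fold changes of both comparisons had a Pearson r of 0.97, beside 0.84 over all genes. LDHA changed by -0.68 ± 0.08, PKM by -0.67 ± 0.06, GPI by -0.65 ± 0.07 and HK2 by -0.47 ± 0.05, and ALDOC by 0.68 ± 0.11, TALDO1 by 0.52 ± 0.06 and PDK2 by 0.51 ± 0.11. SLC2A1, called lower here (-0.25 ± 0.08), lost the call without Sen (IR) + CCCP + mtDNA replicate 2 and PDK4 (0.59 ± 0.24) without that library or replicate 1 or 2 of the combination. No member passed the test of the interaction between acetate and mtDNA in edgeR (3 had an unadjusted p under 0.05), in DESeq2 or without the 2 libraries that stood apart, beside 0.659% of all genes.

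**Figure D4:**
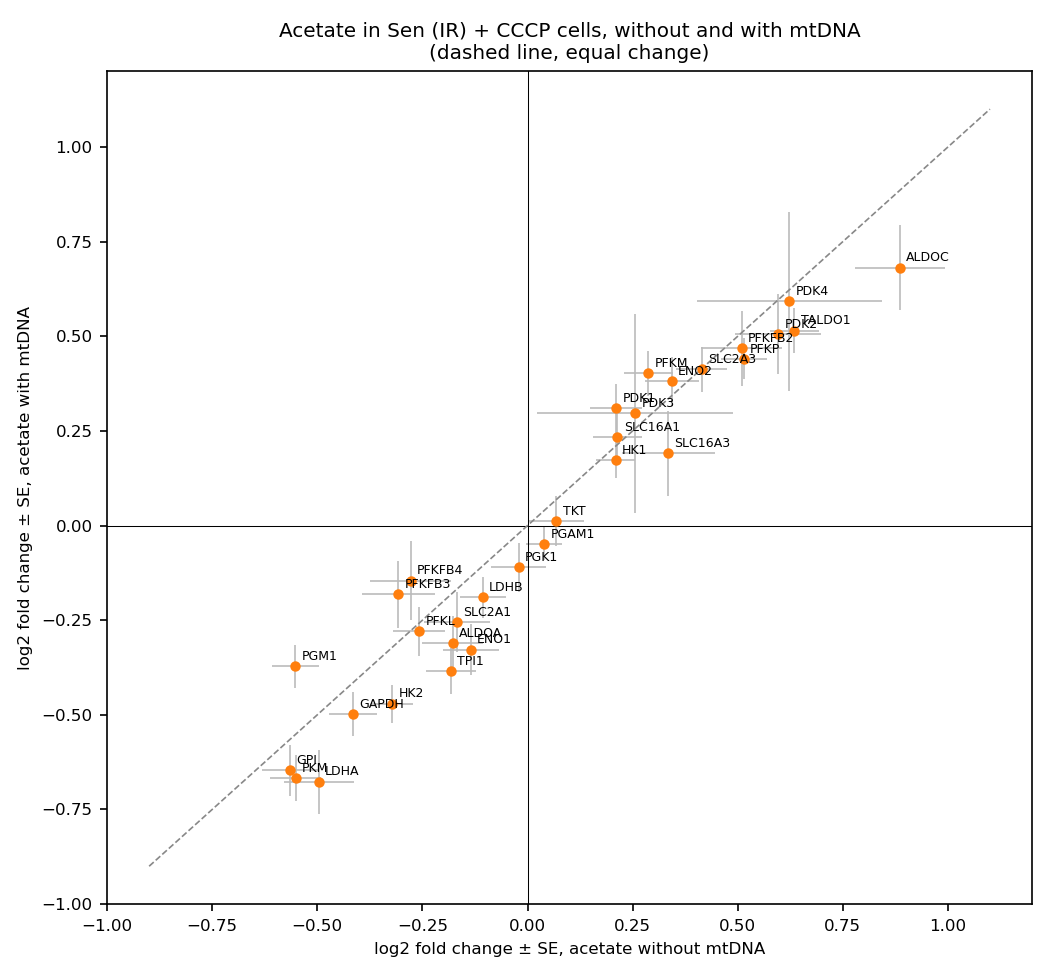
Log2 fold change with standard error of each of the 31 genes with acetate in Sen (IR) + CCCP cells without mtDNA (horizontal axis) and with mtDNA (vertical axis). The 2 comparisons share no library. The genes lie along the dashed line of equal change, with PKM, GPI and LDHA at the lower left and ALDOC, TALDO1, PDK2 and PDK4 at the upper right.

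After transfection of mtDNA the members were called about as often as other genes. In Sen (IR) + CCCP + mtDNA against Sen (IR) + CCCP, 1 member rose and 4 fell, beside 18.1% of all genes called, 10.7% higher and 7.4% lower. All 31 stayed within 1.5-fold, beside 87.0% of all genes. HK2 rose from 433 ± 21.2 to 511 ± 14.8 CPM (0.24 ± 0.05, adjusted p = 0.00145). PFKFB4 fell from 19.1 ± 1.08 to 13.7 ± 1.30 CPM (-0.48 ± 0.10, adjusted p = 0.00146), PFKFB3 from 128 ± 7.54 to 100.4 ± 16.5 CPM (-0.35 ± 0.09) and PDK1 from 55.8 ± 0.704 to 44.5 ± 4.54 CPM (-0.33 ± 0.06, adjusted p = 0.000884). ENO2 changed by -0.23 ± 0.06 (adjusted p = 0.0165), a call lost without Sen (IR) + CCCP replicate 1 or 2 or mtDNA replicate 1 or 3 (-0.33 to -0.16), and the call of PFKFB3 was lost without mtDNA replicate 1 or 3 (-0.49 to -0.25).

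When mtDNA was added in the presence of acetate, no member rose and 4 fell, beside 12.6% of all genes called, 6.57% higher and 6% lower. They were LDHA (-0.35 ± 0.08, adjusted p = 0.00737), PFKFB4 (-0.35 ± 0.10), PDK1 (-0.23 ± 0.06) and TPI1 (-0.22 ± 0.06). LDHA kept its call with each library left out, with values from -0.43 to -0.22, and the other 3 each lost it without 3 of the 6 libraries. DESeq2 called 1 member higher, the fit without filter 8 lower, and leaving out the 2 libraries that stood apart gave 1 higher and 4 lower. The signs of the changes with mtDNA were the same without and with acetate for 24 of 31 members, beside 67.7% of all genes, in comparisons that share no library.

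Given both agents, Sen (IR) + CCCP cells had 10 members higher and 14 lower than Sen (IR) + CCCP cells, beside 61.7% of all genes called, and 7 and 18 with library totals. LDHA fell from 2545 ± 63.1 to 1412 ± 231 CPM (-0.85 ± 0.08, adjusted p = 1.42e-08), the largest fall among the members in this comparison, followed by GPI (-0.73 ± 0.07), PKM (-0.66 ± 0.06) and PFKFB4 (-0.63 ± 0.10). In replicates 1, 2 and 3 of the combination LDHA was at 1559, 1145 and 1531 CPM. ENO2 was called higher by 0.15 ± 0.06, a call lost without Sen (IR) + CCCP replicate 3 or replicate 1 or 3 of the combination and turned to -0.02 with library totals. LDHB was called lower by a small margin (-0.13 ± 0.05) and lost the call whichever of the 6 libraries was left out. Without the 2 libraries that stood apart the counts were 11 and 14.

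Against Sen (IR), 11 members were higher and 14 lower with acetate (beside 65.9% of all genes called), 6 and 14 with mtDNA (67.5%) and 10 and 17 with both (66.9%). With library totals these counts were 13 and 10, 11 and 10, and 10 and 14, and without the 2 libraries that stood apart 11 and 15, 6 and 16, and 10 and 17. These 3 comparisons share the Sen (IR) libraries. PGM1 was called lower and PDK4 higher than in Sen (IR) in each, whereas PFKP rose with acetate to 159 ± 5.83 CPM against 184 ± 16.7 in Sen (IR), and PDK2 to 8.65 ± 0.593 against 13.1 ± 0.815 CPM.

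The balance between isozymes, taken as the ratio of their deposited TPM values within each library, does not depend on the scaling of the library. After CCCP the ratio of SLC2A3 to SLC2A1 rose from 0.174 (0.163 to 0.196 over libraries) to 0.337 (0.322 to 0.346), and with acetate to 0.505. The ratio of HK2 to HK1 rose from 0.694 in Prol to 1.68 in Sen (IR) and 2.45 after CCCP, and was 1.70 with acetate. Both moved beyond the range of the libraries at each of these steps. The ratio of SLC16A3 to SLC16A1 fell from 1.78 (1.501 to 1.97) to 0.858 (0.833 to 0.872) after CCCP. By TPM the more abundant transcript thus changed from SLC16A3 to SLC16A1, which depends on the gene lengths used for TPM. The carrier proteins were not measured in these libraries. LDHB to LDHA went from 0.243 to 0.292 after CCCP, 0.382 with acetate and 0.485 with both agents (0.445 to 0.566, highest in replicate 2, which stood apart). ENO2 to ENO1 went from 0.0847 to 0.122 after CCCP and 0.170 with acetate. ALDOC to ALDOA was 0.0432 in Prol, 0.0177 in Sen (IR) and 0.0449 with acetate, and PFKFB4 to PFKFB3 stayed between 0.123 and 0.136, with overlapping libraries. With 3 libraries against 3, an exact two-sided permutation test cannot go below p = 0.1, or 0.135 after adjustment over the 35 ratio tests made, so none of these ratios could pass the threshold. The first 6 ratios did not overlap between Sen (IR) and Sen (IR) + CCCP and reached that smallest p.

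**Figure D5:**
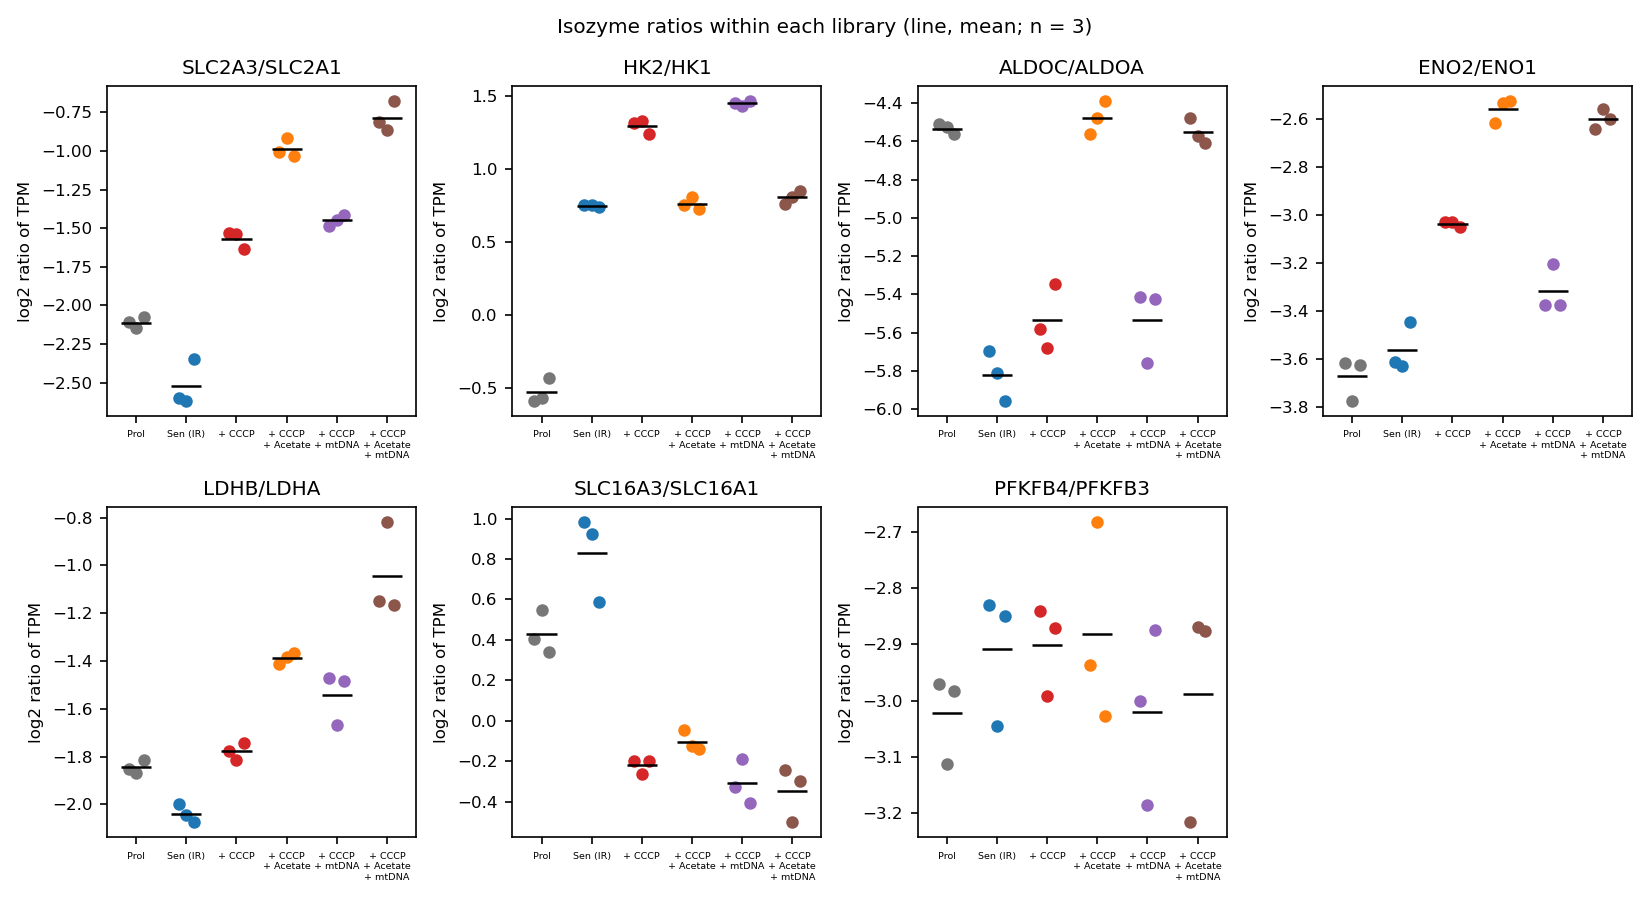
Log2 ratio of TPM of 7 pairs of isozymes or carriers (vertical axes) in each of the 18 libraries, with a line at the mean of 3 libraries. SLC16A3/SLC16A1 is above 0 in Prol and Sen (IR) and below 0 in all groups with CCCP, and PFKFB4/PFKFB3 overlaps between the groups.

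The members together took 1.58% ± 0.10005 of all counts in Sen (IR), 1.73% ± 0.0206 in Sen (IR) + CCCP, 1.32% ± 0.0223 with acetate, 1.62% ± 0.0969 with mtDNA and 1.16% ± 0.0873 with both. Their TPM summed to 14635 ± 1084 in Sen (IR) and 17775 ± 233 in Sen (IR) + CCCP, and to 13955 ± 245 with acetate. These shares have no TMM correction, and they rose after CCCP although more members were called lower than higher relative to the bulk of genes.

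Genes next to the pathway were tested from lists chosen with the members. After CCCP 65.2% of all genes were called, 34% higher and 31.3% lower. In the entry of pyruvate into mitochondria, 6 of 9 genes fell after CCCP and 2 rose, led by PDHB (-0.73) and DLD (-0.70), subunits of the pyruvate dehydrogenase complex, and by PDP2 (0.50), the phosphatase that opposes the kinases above. With log2(TPM + 1) 2 fell and 4 rose, and PDHA1, PDHX, MPC1 and MPC2 turned above 0. Of the oxidative pentose phosphate and ribose enzymes, 3 of 5 fell and none rose after CCCP, namely PGLS (-0.80), PGD (-0.49) and RPIA (-0.38, above 0 on log2(TPM + 1)), and 2 rose with library totals. Of the glycogen and hexosamine enzymes, 4 of 8 fell and 2 rose after CCCP, and the largest changes were those of GYS1, glycogen synthase (-1.28), PYGL, a glycogen phosphorylase (-0.58), and UGP2 (-0.57), which makes UDP-glucose from the product of PGM1. With library totals 3 fell and 4 rose, and these 3 genes kept their direction.

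Of 20 further isozymes and carriers, 12 were abundant enough to test, and 10 of them fell and 1 rose after CCCP, with a median of -0.70 (7 fell and 2 rose with library totals). Of all genes, 31.3% were called lower and 34% higher after CCCP under TMM. SLC2A12, a sugar carrier, went from 7.41 ± 0.459 to 1.19 ± 0.154 CPM (-2.65). HKDC1, a hexokinase relative, went from 1.08 ± 0.314 to 0.299 ± 0.150 CPM (-1.88), and LDHD, the D-lactate dehydrogenase, from 0.264 ± 0.138 to 0.0391 ± 0.0154 CPM, where single libraries hold few counts. With acetate 6 of the 12 rose and 1 fell, beside 57.1% of all genes called, 28.8% higher and 28.3% lower. Of 6 gluconeogenesis genes 3 were tested. PCK2, the mitochondrial form of phosphoenolpyruvate carboxykinase, changed by -2.35 with irradiation and by 1.18 after CCCP, still below Prol (-1.17). Against Sen (IR) + CCCP it rose by 1.71 with acetate and by 1.25 with mtDNA. Its interaction of acetate and mtDNA was called (-0.95, adjusted p = 5.42e-05 by edgeR's quasi-likelihood test). G6PC3, a glucose 6-phosphatase, fell by 1.14 on the log2 scale after CCCP.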

How the data were processed

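Counts per gene were deposited by the authors without normalization, made per the labels and methods with Trimmomatic 0.36, STAR 2.5.2b on GRCh38 and featureCounts of Subread 1.5.2 (uniquely mapped reads over exons). The authors also deposited TPM, counts corrected for gene length and library size. The methods count strand-specific libraries by strand, but whether these libraries were strand-specific is not given in the sources used here. Every column was mapped to a library by its name (0 without a sample), and 485 of 57500 genes carry no symbol. Members and gene lists were chosen with earlier results of these data known.

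One edgeR 4.0.16 quasi-likelihood model (R 4.3.3) with 6 group means was fitted to all 18 libraries with TMM normalization, no replicate block and edgeR's filterByExpr by group, which left 16994 genes. The common biological coefficient of variation was 0.0644. A gene was called at an adjusted p under 0.05 (Benjamini-Hochberg over all genes tested). CPM use TMM-scaled library sizes, and levels of different genes were compared only as TPM. Isozyme ratios of TPM were compared by exact two-sided permutation tests (SciPy 1.17.1). Alternatives were DESeq2 1.42.0 (size factors and Wald test), library totals, limma 3.58.1 on log2(TPM + 1) computed from the deposited TPM, no filter or a minimum of 10 counts in every library, removal of mtDNA-encoded genes, a fit of just the groups in a comparison, a replicate block and removal of each library in turn. Leaving out the 2 libraries farthest from their groups was chosen after seeing the data. The fits were tested on simulated counts. All 31 members are named. Values in every library are given for members called under TMM with a change of 2-fold or more in Sen (IR) + CCCP against Sen (IR), and up to 3 of the largest called changes are named per further list. HIF1A and MYC are named in addition.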

Additional observations from a re-analysis of the deposited data

How the results depend on the processing

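Depth limits PDK4 and PDK3, and unstated strandedness limits the 14 members whose exons overlap a gene on the other strand. Exons of GPI, ALDOA, PFKFB4, PGK1 and LDHB overlap a coding gene on the same strand, where strand cannot separate the reads. The replicate numbers did not pair the libraries: in none of 15 group pairs did every same-numbered pair correlate above 0.1 (range -0.08 to 0.09), and 8 of 18 libraries correlated best with their own number. With the replicate block the comparison of Sen (IR) + CCCP with Sen (IR) still gave 8 higher and 13 lower, no count moved by over 1.5 times, SLC16A3 became called in the combination against Sen (IR) + CCCP (0.23) and PDK1 was lost in the combination against Sen (IR) (adjusted p = 0.0546, edgeR).

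With library totals, the comparison of Sen (IR) + CCCP with Sen (IR) gave 16 members higher, 7 lower and a median of 0.18, with SLC2A1 at 0.048, PGAM1 at 0.039, PKM at 0.12 and TALDO1 at 0.019. Sen (IR) + CCCP against Prol gave 21, 7 and 0.37. Against Sen (IR) + CCCP, acetate gave 8 higher and a median of -0.082, mtDNA 8 lower and -0.092, and both -0.24. Adding mtDNA to acetate gave 12 lower, and adding acetate to mtDNA a median of -0.16. Medians were 0.18 for Sen (IR) against Prol and, against Sen (IR), 0.10 with acetate, 0.065 with mtDNA (11 higher) and -0.093 with both.

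With limma on log2(TPM + 1), Sen (IR) + CCCP against Sen (IR) gave 21 higher, 4 lower and a median of 0.29, with SLC2A1 at 0.22, PFKM at 0.10, GAPDH at 0.11, PGAM1 at 0.21, PKM at 0.29 and TALDO1 at 0.19. Against Prol the counts were 23 and 5, with a median of 0.46. Against Sen (IR) they were 20 and 8 (0.28) with acetate, 17 and 6 (0.22) with mtDNA and 10 lower (0.11) with both. Other medians were 0.17 for Sen (IR) against Prol, -0.059 for acetate, -0.10 for mtDNA, -0.19 for both and -0.11 for acetate added to mtDNA. Both alternatives leave out TMM, which moves all genes together. Their counts of members have no share of all genes called beside them.

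For mtDNA added to acetate, DESeq2 gave 1 higher and the fit without filter 8 lower. With only the groups compared, mtDNA gave 2 higher. Without the 2 libraries that stood apart, mtDNA added to acetate gave 1 higher, and the medians were 0.17 for Sen (IR) against Prol and -0.11 for acetate against Sen (IR). The cause of these differences was not tested.

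With each library left out in turn, the median ranged from 0.051 to 0.17 for Sen (IR) against Prol (without Sen (IR) replicates 2 and 3), from -0.064 to 0.039 for Sen (IR) + CCCP against Prol (without Prol replicates 1 and 2) and from -0.11 to 0.043 for acetate against Sen (IR) (without Sen (IR) replicates 3 and 2). Members lower ranged from 2 to 4 with mtDNA (2 without mtDNA replicate 1 or 3) and from 1 to 4 for mtDNA added to acetate (2 without acetate replicate 1 or 3, 1 without replicate 2 of the combination). The log2 ratio difference of ALDOC to ALDOA with mtDNA ranged from -0.068 to 0.12, and that of PFKFB4 to PFKFB3 from -0.061 to 0.053 after CCCP, -0.081 to 0.091 with acetate and -0.15 to 0.028 with both.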

Other observations

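Regulators of glycolysis and hypoxia-inducible genes outside the pathway moved in both directions after CCCP. Of 7 regulators, 3 rose and 2 fell, beside 65.2% of all genes called after CCCP. TXNIP, an arrestin that restrains glucose uptake and whose transcription follows glucose phosphates, fell from 1131 ± 98.4 to 196 ± 5.01 CPM (log2 fold change -2.53, adjusted p = 7.29e-13 by edgeR's quasi-likelihood test), and its relative ARRDC4 fell from 282 ± 89.2 to 50.8 ± 1.70 CPM (-2.47). EPAS1, which encodes HIF2α, rose by 1.27, and HIF1A was not called (0.04 ± 0.09). MYC rose by 0.72 ± 0.07 after CCCP. Against Sen (IR) + CCCP it changed by -0.73 ± 0.07 with acetate and by 0.48 ± 0.07 with mtDNA. Transcript levels of these factors do not measure their activity, which is set largely at the protein. With library totals 5 rose and 2 fell, and TXNIP, ARRDC4 and EPAS1 kept their direction.

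Of 14 hypoxia-inducible genes, 6 rose and 6 fell after CCCP, beside 65.2% of all genes called (8 and 4 of the 14 with library totals). The largest changes were falls, of CA9 from 1.85 ± 0.0804 to 0.426 ± 0.135 CPM (-2.09), of P4HA2, a collagen prolyl hydroxylase (-1.95), and of EGLN3, an oxygen sensor, from 3.15 ± 0.526 to 0.955 ± 0.0517 CPM (-1.72). With acetate 6 rose and 4 fell, beside 57.1% of all genes called. These cells were cultured at low oxygen, as stated above, so the levels before CCCP are not those of cells at atmospheric oxygen. The part of oxygen in these changes was not tested.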
